A study of Danio rerio with 4 samples.

Results

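Secreted signals by which endothelium acts on blood stem cells and mural cells were measured in sorted zebrafish endothelial cells. They were the Kit ligand genes kitlga and kitlgb, the platelet-derived growth factor B genes pdgfba and pdgfbb, the transforming growth factor beta genes tgfb1a and tgfb2, the gene of the TAM receptor ligand gas6, the bone morphogenetic protein gene bmp4, the interleukin-6 family cytokine gene osm and the thrombopoietin gene thpo. Genes were chosen by symbol, ignoring case, and all 10 symbols had 1 row each among the 31951 genes of the table. The rows of gas6, bmp4 and tgfb2 carry their symbols in capitals. The endothelial cells were sorted by red fluorescence from fish carrying kdrl:mcherry alone, labelled wt and called controls here, and from fish carrying kdrl:mcherry together with kdrl:cxcr1. The kdrl promoter is active in endothelium, and cxcr1 encodes a receptor for the chemokine CXCL8. Embryos were kept under standard conditions, and their stage is not given in the labels. Each of 2 independent clutches gave 1 library per genotype, so that each genotype had 2 libraries and 4 were made in all. No label says how many fish were pooled for a library.

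Endothelial cells form a niche in which haematopoietic stem and progenitor cells settle, and they instruct these cells by membrane-bound and secreted ligands. Kit ligand binds the receptor tyrosine kinase Kit on stem cells, thrombopoietin maintains stem cells and drives the thrombocyte lineage, and oncostatin M signals through a receptor complex that contains Il6st. Pdgfb from endothelium recruits pericytes and smooth muscle cells, together called mural cells, through Pdgfrb. Tgfb and Bmp ligands act through serine/threonine kinase receptors on endothelium, mural cells and emerging stem cells, and Gas6 activates the TAM receptors Tyro3, Axl and Mertk.

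Values are FPKM (fragment counts divided by the transcript's length and by the library's mapped total), so that levels of different genes can be compared. Where a genotype has a pair of values, clutch 1 comes first and clutch 2 after it. FPKM holds no read counts, and the depth behind each value is unknown. The pan-endothelial list had 14 of its 15 rows above the detection filter, and its summed level was 859 and 1065 FPKM in clutches 1 and 2 of kdrl:cxcr1, compared with 757 and 1309 FPKM in controls. The row cxcr1 read 12.8 and 0 FPKM in kdrl:cxcr1, compared with 8.14 and 0 FPKM in controls, so it did not separate the genotypes, and directions are given between libraries by their labels. A gene can be listed at 0 because its estimate failed, so a 0 is not taken as absence of RNA. In bulk RNA, fewer cells of a type and less RNA per cell cannot be told apart.

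Of the 10 signal genes, 7 had at least 1 FPKM in all 4 libraries. Ordered by mean level over the libraries, they were pdgfba (38.7 FPKM), tgfb1a (28.8), kitlga (27.5), gas6 (21.3), tgfb2 (15.8), bmp4 (15.4) and pdgfbb (11.4). The mean of pdgfba lay above that of 88.3% of the 17723 genes tested, and that of pdgfbb above 62.9%. Each neighbour in this order overlapped the next in its range over the libraries, so the order of neighbours is not beyond the spread. Over the libraries even pdgfba (lowest 19.9 FPKM) and pdgfbb (highest 21.3 FPKM) overlapped, although pdgfba exceeded pdgfbb within every library. kitlgb followed at 2.02 FPKM or less in every library, with no overlap with the range of pdgfbb. thpo and osm were listed at 0 in all 4 libraries.

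**Figure D1:**
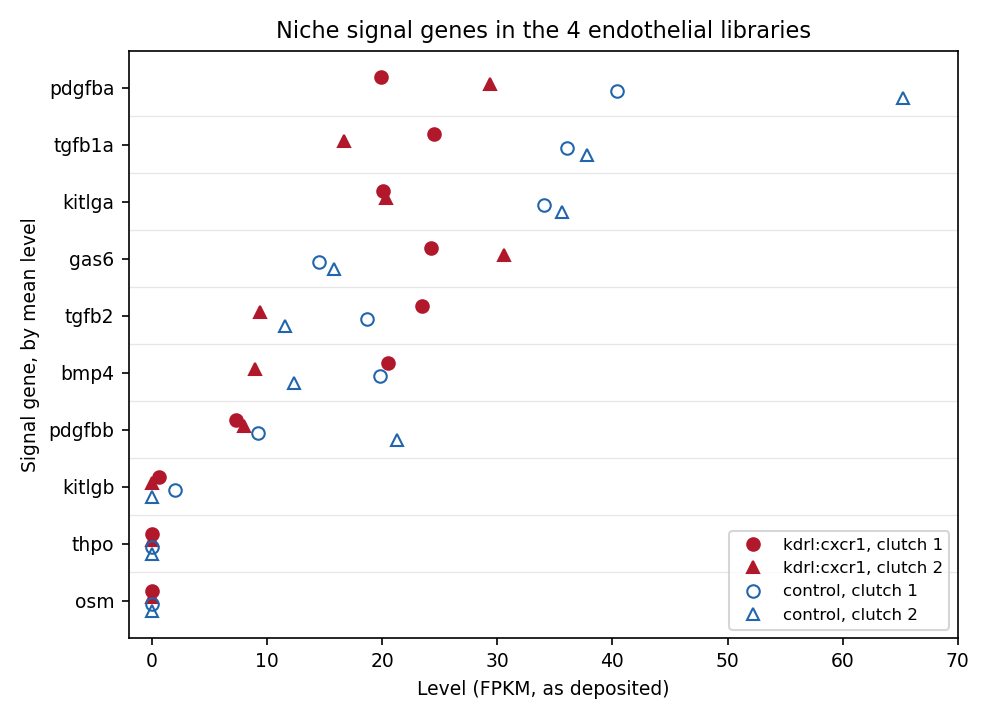
Level of each of the 10 signal genes (horizontal axis, FPKM on a linear scale) in each library, with genes ordered by their mean level. Filled red symbols are kdrl:cxcr1 and open blue symbols controls, and circles are clutch 1 and triangles clutch 2. pdgfba, tgfb1a, kitlga and pdgfbb have both red symbols left of both blue ones, gas6 has them to the right, and tgfb2 and bmp4 divide by clutch.

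The question put to these libraries was whether the signals differed between endothelium with and without kdrl:cxcr1. pdgfba, tgfb1a, kitlga and pdgfbb were below both control libraries in both kdrl:cxcr1 libraries, gas6 was above them in both, and tgfb2 and bmp4 overlapped. No signal gene passed the test: 0 of the 7 tested had a limma adjusted p below 0.05, against 0.0113% of all genes (2 of 17723), and the smallest adjusted p among the 7 was 0.699. With the clutch as a block in the limma fit, 0 genes of the table passed and 1458 had an unadjusted p below 0.05. Values that did not overlap and lay lower in kdrl:cxcr1 were found in 4 of the 7, against 13.6% of all genes tested, and such values lying higher in 1 of the 7, against 26.0%. After median-of-ratios scaling these shares of all genes were 20.0% and 18.3%, and the same signal genes did not overlap. A log2 fold change is the limma difference, kdrl:cxcr1 minus control, on the log2(FPKM + 1) scale, and is called a log2 difference where it stands in parentheses. An unadjusted p below 0.05 was reached by 1 of the 7, pdgfba, against 6.8% of all genes. That count was 3 with median-of-ratios scaling, where kitlga and tgfb1a joined pdgfba, and 0 with robust moderation, with the stricter filter, without the intensity trend, or without kdrl:cxcr1 clutch 1, kdrl:cxcr1 clutch 2 or control clutch 2. With 2 libraries per genotype an exact permutation test cannot give a two-sided p below 0.333. The limma p-values here rest in large part on the spread pooled over genes, beside each gene's own spread.

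**Figure D2:**
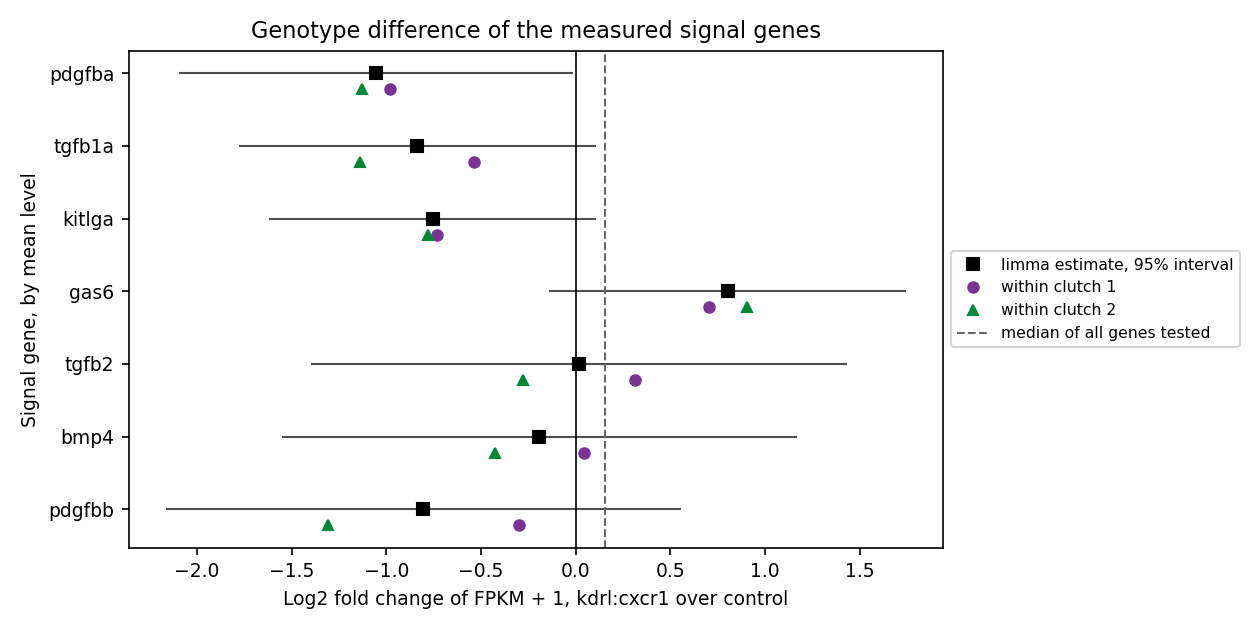
Log2 fold change of FPKM + 1 (horizontal axis), kdrl:cxcr1 over control, for the 7 signal genes tested. Black squares are limma estimates with 95% intervals from 2 libraries per genotype, and purple circles and green triangles the ratios within clutches 1 and 2. pdgfba, tgfb1a, kitlga and pdgfbb lie left of 0 in both clutches and gas6 right of 0 in both. tgfb2 and bmp4 lie on either side of 0. The dashed line is the median of all genes tested, at 0.16.

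Among the Kit ligands, kitlga (ENSDARG00000070917) was the measured copy. In zebrafish kitlga is known for its part in pigment cell migration and survival. It read 20.1 and 20.3 FPKM in clutches 1 and 2 of kdrl:cxcr1, compared with 34.0 and 35.6 FPKM in controls. As deposited, the libraries of each genotype lay close together, and the genotypes did not overlap. The means were 20.2 ± 0.195 FPKM (SD, n = 2) and 34.8 ± 1.11 FPKM, and the log2 fold change was -0.76 (SE 0.35, 95% interval -1.62 to 0.11; limma's adjusted p = 0.699). The log2 ratio was -0.73 within clutch 1 and -0.78 within clutch 2, so the clutches differed little on the deposited scale. Over all genes the median was 0.16, and relative to it kitlga stood at -0.91. The closeness depended on the scaling. With each library scaled to its summed pan-endothelial level, kitlga read 22.8 and 18.6 in kdrl:cxcr1, compared with 43.8 and 26.5 in controls.

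The second Kit ligand gene, kitlgb (ENSDARG00000058042), has been tied in zebrafish to the expansion of blood stem cells. It read 0.577 and 2.02 FPKM in the kdrl:cxcr1 and control libraries of clutch 1, and was listed at 0 in both libraries of clutch 2. The clutch 2 libraries listed 43.5% (kdrl:cxcr1) and 42.0% (control) of the table's genes at 0, compared with 31.9% in each clutch 1 library. With 1 library at 1 FPKM or more kitlgb fell short of the filter and was not tested. Both Kit receptor rows had signal in the sorted cells. KIT, the table's symbol for kita, read 9.33 and 19.5 FPKM in kdrl:cxcr1, compared with 5.67 and 12.6 FPKM in controls. It was higher in clutch 2 than in clutch 1 in both genotypes, and the log2 ratio of kdrl:cxcr1 over control was 0.63 within clutch 1 and 0.59 within clutch 2 (limma's adjusted p = 0.824 without the block). The other copy, kitb, read 2.51 and 0 FPKM against 2.60 and 12.9 FPKM, with the highest value in control clutch 2 alone.

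Of the 7 signal genes tested, pdgfba (ENSDARG00000086778) had the largest log2 fold change between the genotypes. It read 19.9 and 29.3 FPKM in kdrl:cxcr1, compared with 40.4 and 65.3 FPKM in controls. As deposited, clutch 2 was the higher within each genotype, and the highest kdrl:cxcr1 library lay below the lowest control library. With each library scaled to its summed pan-endothelial level, the controls read 52.0 and 48.6, so their clutch order depended on the scaling. The log2 fold change was -1.05 (SE 0.42, 95% interval -2.09 to -0.017), with an unadjusted limma p of 0.0474 and an adjusted p of 0.699. Relative to the median gene it was -1.21, and the log2 ratios within clutches 1 and 2 were -0.98 and -1.13.

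pdgfbb (ENSDARG00000038139), the duplicate of pdgfba, read 7.27 and 8.02 FPKM in kdrl:cxcr1, compared with 9.18 and 21.3 FPKM in controls. The genotypes did not overlap, but as deposited control clutch 2 stood well above the other libraries. With each library scaled to its summed pan-endothelial level, pdgfbb read 8.26 and 7.35 in kdrl:cxcr1, compared with 11.8 and 15.9 in controls. The log2 fold change was -0.80 (SE 0.55; limma's adjusted p = 0.742), at -0.30 within clutch 1 and -1.31 within clutch 2. It was -0.24 without control clutch 2 and -1.37 without control clutch 1. pdgfba exceeded pdgfbb in every library, by 2.74- and 3.66-fold in kdrl:cxcr1, compared with 4.40- and 3.06-fold in controls. These ratios overlapped between the genotypes.

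The receptor through which Pdgfb recruits mural cells, PDGFRB (ENSDARG00000100897), was listed at 0 in all 4 libraries. The related receptor PDGFRA, of mesenchymal cells, read 43.6 and 56.6 FPKM in kdrl:cxcr1, compared with 37.4 and 25.1 FPKM in controls (log2 difference 0.68, SE 0.38; limma's adjusted p = 0.712). Other mural genes were present. The actin-binding smooth muscle gene TAGLN, in the more abundant of its rows (ENSDARG00000033466), read 132 and 169 FPKM in kdrl:cxcr1, compared with 120 and 154 FPKM in controls. The pericyte gene rgs5b read 46.8 and 54.1 FPKM against 68.6 and 76.3 FPKM. Over the 18 rows of the mural list the summed level was 421 and 433 FPKM in kdrl:cxcr1, compared with 406 and 413 FPKM in controls. Of its 15 tested rows, 0 passed the limma test. Without overlap, 3 lay lower and 2 higher in kdrl:cxcr1, against 13.6% and 26.0% of all genes.

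Of the Tgfb genes, tgfb1a (ENSDARG00000041502) showed the same direction as pdgfba. In zebrafish Tgfb1a has been tied to the emergence of blood stem cells from the aorta. It read 24.5 and 16.7 FPKM in kdrl:cxcr1, compared with 36.1 and 37.8 FPKM in controls. As deposited, the control libraries nearly coincided and both lay above both kdrl:cxcr1 libraries. The log2 fold change was -0.84 (SE 0.38, 95% interval -1.78 to 0.11; limma's adjusted p = 0.699), at -0.54 within clutch 1 and -1.14 within clutch 2. Relative to the median gene it was -0.99.

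Its duplicate tgfb1b, named after its values were seen, lay in the opposite direction. It read 12.9 and 15.7 FPKM in kdrl:cxcr1, compared with 10.7 and 4.66 FPKM in controls (log2 difference 0.91, SE 0.54; limma's adjusted p = 0.721). tgfb1a exceeded tgfb1b 1.90- and 1.06-fold in kdrl:cxcr1, compared with 3.38- and 8.12-fold in controls. The ratio was thus lower in both kdrl:cxcr1 libraries than in either control library, and control clutch 2 gave its extreme. With tgfb1a lower and tgfb1b higher without overlap, this ratio had to separate the genotypes and adds no further result. TGFB3, another ligand of the family and also named after its values were seen, read 32.6 and 21.2 FPKM against 21.6 and 7.56 FPKM (log2 difference 0.97, SE 0.59; limma's adjusted p = 0.721). Its genotypes overlapped, and both clutch 1 libraries lay above both clutch 2 libraries.

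tgfb2 (ENSDARG00000027087), a ligand with roles in heart valve and vessel development, divided by clutch and not by genotype. It read 23.5 and 18.7 FPKM in the kdrl:cxcr1 and control libraries of clutch 1, and 9.38 and 11.6 FPKM in those of clutch 2. The log2 fold change by genotype was 0.02 (SE 0.57, 95% interval -1.40 to 1.43; limma's adjusted p = 0.997), and its sign turned to -0.20 with median-of-ratios scaling. bmp4 (ENSDARG00000019995), whose protein patterns ventral mesoderm and acts beneath the embryonic aorta, did the same. It read 20.5 and 19.8 FPKM in clutch 1 and 8.93 and 12.4 FPKM in clutch 2. The log2 fold change was -0.19 (SE 0.55, 95% interval -1.55 to 1.17; limma's adjusted p = 0.958), and it turned to 0.37 without kdrl:cxcr1 clutch 2 and to 0.13 without control clutch 1.

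Both tgfb2 and bmp4 thus lay higher in both clutch 1 libraries than in either clutch 2 library, as did 20.4% of all genes tested. The opposite order, clutch 2 above clutch 1, held for 0 of the 7 signal genes tested and for 15.5% of all genes. The libraries of the clutches also differed as a whole. Each clutch 1 library listed 31.9% of the table's genes at 0, compared with 43.5% (kdrl:cxcr1) and 42.0% (control) in clutch 2. The row rn7sl1 held 37.5% and 30.1% of the summed FPKM in kdrl:cxcr1, compared with 39.8% and 24.0% in controls. The part of these differences in the clutch division was not tested. tgfb2 and bmp4 were close in level, with a tgfb2 to bmp4 ratio of 1.15 and 1.05 in kdrl:cxcr1, compared with 0.942 and 0.939 in controls. This ratio did not overlap between the genotypes, but it was read beside other ratios and was not tested. None of the intervals is narrow enough to show that tgfb2 or bmp4 was equal in the genotypes.

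gas6 (ENSDARG00000007804) was the 1 signal gene whose values lay higher in both kdrl:cxcr1 libraries. Gas6 is a vitamin K-dependent protein secreted by vessel wall cells. It read 24.3 and 30.5 FPKM in kdrl:cxcr1, compared with 14.5 and 15.9 FPKM in controls. The means were 27.4 ± 4.43 FPKM (SD, n = 2) and 15.2 ± 0.933 FPKM, and the genotypes did not overlap. The log2 fold change was 0.80 (SE 0.38, 95% interval -0.14 to 1.75; limma's adjusted p = 0.699), at 0.70 within clutch 1 and 0.90 within clutch 2. Relative to the median gene it was 0.65.

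The other TAM ligand, pros1, which encodes the anticoagulant protein S and was named after its values were seen, lay lower in kdrl:cxcr1. It read 3.04 and 3.55 FPKM against 7.84 and 10.0 FPKM in controls (log2 difference -1.20, SE 0.53; limma's adjusted p = 0.699). gas6 exceeded pros1 7.99- and 8.60-fold in kdrl:cxcr1, compared with 1.85- and 1.58-fold in controls. With gas6 higher and pros1 lower without overlap, this ratio had to separate the genotypes. Of the TAM receptors, tyro3 overlapped between the genotypes, with 12.7 and 9.40 FPKM in kdrl:cxcr1, compared with 9.58 and 12.3 FPKM in controls. mertka read 11.8 and 30.2 FPKM against 10.6 and 2.59 FPKM (log2 difference 1.63, SE 0.76; limma's adjusted p = 0.699), with little difference within clutch 1 (0.14) and 3.12 within clutch 2. No row was matched to axl.

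Ratios of FPKM values within 1 library do not change with the scaling of that library. The ratio of gas6 to kitlga was 1.21 and 1.50 in kdrl:cxcr1, compared with 0.427 and 0.446 in controls. gas6 was thus the more abundant transcript of the pair in both kdrl:cxcr1 libraries and the less abundant in both control libraries. The ratio of gas6 to pdgfba was 1.22 and 1.04 in kdrl:cxcr1, compared with 0.360 and 0.243 in controls. The ratio of gas6 to tgfb1a was 0.990 and 1.83 against 0.403 and 0.419. gas6 lay higher and kitlga, pdgfba and tgfb1a lower without overlap, so these ratios had to separate the genotypes and add no further result. The ratios of gas6 to tgfb2 and to bmp4 overlapped between the genotypes.

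**Figure D3:**
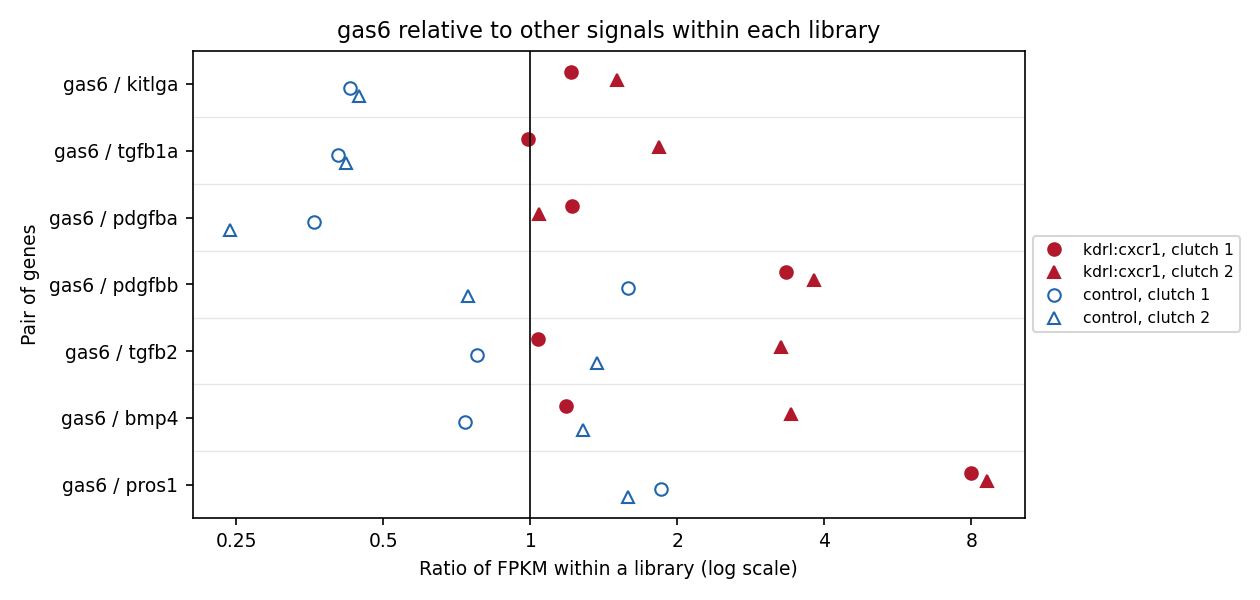
Ratio of the FPKM of gas6 to that of another signal gene or pros1 in the same library (horizontal axis, log scale). Filled red symbols are kdrl:cxcr1 and open blue symbols controls, and circles are clutch 1 and triangles clutch 2. The genotypes separate for kitlga, tgfb1a, pdgfba, pdgfbb and pros1, and overlap for tgfb2 and bmp4. The separation follows from the known directions, with gas6 higher and those genes lower in kdrl:cxcr1 without overlap.

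Among kitlga, pdgfba and tgfb1a, in contrast, the ratios overlapped between the genotypes. The ratio of pdgfba to kitlga was 0.994 and 1.44 in kdrl:cxcr1, compared with 1.19 and 1.83 in controls. That of kitlga to tgfb1a was 0.818 and 1.22 against 0.943 and 0.941. The 4 genes with lower values, pdgfbb included, summed to 71.8 and 74.3 FPKM in kdrl:cxcr1 and to 119.6 and 160.0 FPKM in controls. Their sum was taken after their direction was known and carries no test.

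osm (ENSDARG00000100948) and thpo (ENSDARG00000079158), which encode the remaining cytokines, were listed at 0 in all 4 libraries and give no comparison. Receptor subunits of oncostatin M were measured. il6st, the signal-transducing subunit shared by the interleukin-6 family, read 26.2 and 22.6 FPKM in kdrl:cxcr1, compared with 44.9 and 55.0 FPKM in controls. Its log2 ratio was -0.75 within clutch 1 and -1.24 within clutch 2 (limma's adjusted p = 0.699). osmr, the specific subunit for oncostatin M, was low throughout, at 2.71 and 4.18 FPKM against 0.853 and 0.556 FPKM (log2 difference 1.37, SE 0.66; limma's adjusted p = 0.699). Both control values lay below 1 FPKM, so osmr met the detection filter only through the kdrl:cxcr1 libraries. Its higher values there are therefore not read as a result.

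The receptors of the signals, 21 tested rows, had 0 members past the threshold. Without overlap, 5 lay lower and 7 higher in kdrl:cxcr1, where 13.6% and 26.0% of all genes did so. Their median log2 fold change was 0.32, against 0.16 for all genes. Receptors other than PDGFRA, il6st, TGFBR2 and BMPR1A were named after their values were seen. Among Bmp receptors, bmpr1ba read 14.6 and 17.3 FPKM in kdrl:cxcr1, compared with 7.99 and 4.88 FPKM in controls (limma's adjusted p = 0.699). An unadjusted limma p below 0.05 was reached by 1 receptor row higher in kdrl:cxcr1, bmpr1ba, and by 1 lower, il6st. That level was reached by 6.8% of all genes. A row under the symbol TGFBR2 (ENSDARG00000034541) read 10.2 and 10.9 FPKM in kdrl:cxcr1, compared with 11.8 and 101 FPKM in controls, so that its difference came from control clutch 2. The more abundant row under BMPR1A (ENSDARG00000019728) read 36.3 and 26.3 FPKM against 71.8 and 26.1 FPKM, with control clutch 1 apart from the others. Rows that share a symbol may share reads, and their split is uncertain.

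**Figure D4:**
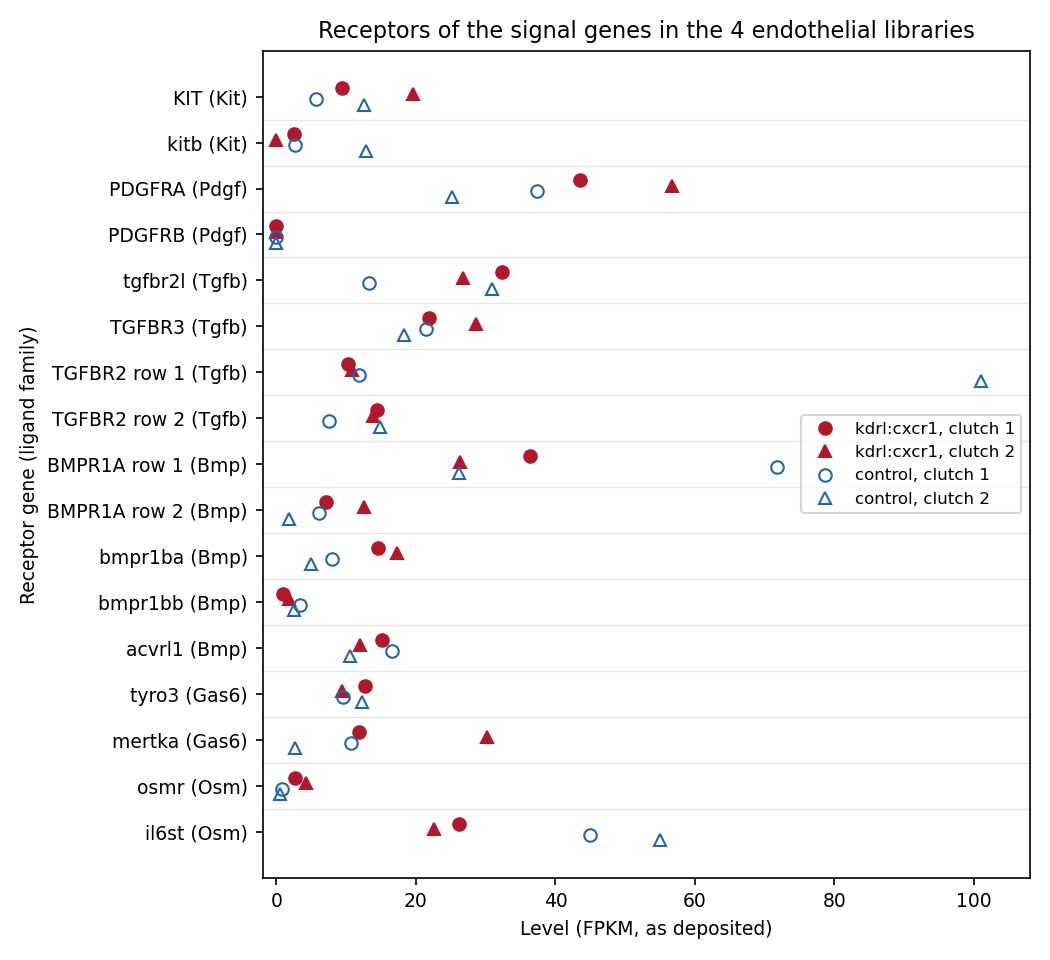
Level of receptor genes of the signals (horizontal axis, FPKM on a linear scale) in each library, with the ligand family in parentheses. Filled red symbols are kdrl:cxcr1 and open blue symbols controls, and circles are clutch 1 and triangles clutch 2. Among others, il6st lies lower and bmpr1ba and PDGFRA higher in both kdrl:cxcr1 libraries. Of all 21 tested receptor rows, some not shown, 5 lay lower and 7 higher without overlap, against 13.6% and 26.0% of all genes. PDGFRB is at 0 throughout, and row 1 of TGFBR2 stands at 101 FPKM in control clutch 2.

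Genes that release, trap or process these ligands were read in the same fit. Counts of rows without overlap in the lists that follow stand against 13.6% of all genes lower and 26.0% higher in kdrl:cxcr1, and medians against 0.16. Of 20 tested rows, 0 passed, 5 lay lower and 2 higher in kdrl:cxcr1 without overlap, and the median log2 fold change was -0.20. The most abundant were the matrix gene SPARC (295 and 215 FPKM in kdrl:cxcr1, 383 and 154 FPKM in controls) and the proteoglycan gene DCN (76.6 and 53.0 against 128 and 74.4 FPKM). Among 17 genes known to respond to Tgfb, Bmp or cytokine signals, 0 passed, 4 lay lower and 3 higher without overlap, and the median was -0.19. The most abundant of them differed in direction. The collagen gene col1a1a read 303 and 352 FPKM in kdrl:cxcr1, compared with 249 and 172 FPKM in controls, higher without overlap. TGFBI read 138.6 and 160.9 against 209.5 and 161.9 FPKM, lower without overlap but with close values in clutch 2. The Bmp-responsive gene ID3 (138 and 191 against 178 and 175 FPKM) and PIM1 (109.3 and 154.8 against 96.95 and 155.5 FPKM) overlapped. Without the 10 signal genes, 13 further tested ligands of these families had a median of 0.21, with 2 lower and 4 higher without overlap and 0 past the threshold.

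Summed levels of other cell types' markers varied between the libraries, with 0 rows of any such list past the limma threshold. Their counts without overlap stand against the same 13.6% lower and 26.0% higher of all genes. The epidermal list, 13 rows, summed to 586 and 135 FPKM in kdrl:cxcr1, compared with 776 and 856 FPKM in controls, with 7 rows lower without overlap. The neutrophil and macrophage list, 20 rows, summed to 1172 and 1812 FPKM against 696 and 977 FPKM. Of its 15 tested rows, 6 lay higher and 2 lower without overlap. Its most abundant rows were lyz (317 and 703 against 310 and 420.5 FPKM) and npsn (572 and 583 against 132.5 and 292 FPKM). The erythroid list, 12 rows, summed to 6579 and 1497 FPKM against 3087 and 1669 FPKM, and 7 of its 11 tested rows lay higher without overlap. Most of each sum was the globin row hbae3, at 6370 and 1348 FPKM against 2999 and 1580 FPKM, which overlapped between the genotypes. The stem and progenitor list, 12 rows, summed to 184 and 229 FPKM against 130 and 175 FPKM, with ptprc at 0 throughout. Of its 11 tested rows, 2 lay lower and 4 higher without overlap. The part of these cells in the values of the signal genes was not tested. With each library scaled to its summed pan-endothelial level, kitlga, pdgfba, pdgfbb and tgfb1a were still lower and gas6 higher in kdrl:cxcr1 without overlap, against 11.5% and 22.1% of all genes. On that scale tgfb1a came nearest to overlap, at 27.9 and 15.3 in kdrl:cxcr1, compared with 46.5 and 28.2 in controls.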

How the data were processed

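RNA of sorted endothelial cells was made into libraries with SMARTer low-input reagents, per the labels' protocols. The authors deposited FPKM values, 1 column per library, and each of the 4 columns was matched to its sample by title. The submitters' processing notes name cutadapt, TopHat2 2.0.11, Cufflinks 2.2.1 and build GRCz10. The annotation, the strand setting and any scaling across libraries were not given in the sources used here. Low values showed no common step between libraries, so read depth is unknown. Symbols, from a table of Ensembl identifiers, covered 26120 of 31951 genes.

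Values were tested as log2(FPKM + 1) by limma 3.58.1 under R 4.3.3 (intensity trend, two-sided, Benjamini-Hochberg over all 17723 genes with at least 1 FPKM in at least 2 libraries, threshold 0.05). Fold changes on this scale understate those of low genes. No genome of this build was used, so no coordinates are given.

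Members and lists were chosen with earlier results of these data known. All members are named. From each list the 4 genes with the highest mean level could be named. Others, TGFB3, PDGFA and ptprc included, were chosen after their values were seen. Alias matches of axl and gfi1ab to other genes were left out. Clutch numbers pair the samples, because each clutch gave 1 library per genotype. Deviations from the genotype means correlated at 0.116 between libraries of a clutch. Alternatives were other pseudocounts, filters, scalings and moderation, the clutch as a block and leaving out each library. Rescaling without rn7sl1 and to endothelial markers was chosen after seeing the data. The fit was tested on simulated data with planted changes larger than the estimate of any signal gene. That test does not show how the fit performs on differences of their size. A further receptor gene is not reported here.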

Additional observations from a re-analysis of the deposited data

Results flagged for a closer look

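The genotype difference had opposite signs in the clutches for several genes. With 1 library per genotype and clutch, the difference between clutches was not tested. For tgfb2 the log2 ratio of kdrl:cxcr1 over control was 0.31 in clutch 1 and -0.28 in clutch 2, and for bmp4 0.04 and -0.43. For PDGFA, a related ligand gene listed at 0 in kdrl:cxcr1 clutch 2 and read at 12.9 to 16.6 FPKM in the other libraries, it was 0.34 and -3.97. Among receptors it was 1.23 and -0.20 for tgfbr2l, 0.86 and -0.09 for the TGFBR2 row ENSDARG00000059363, and -0.96 and 0.01 for the BMPR1A row ENSDARG00000019728. It was -0.13 and 0.17 for acvrl1 and 0.38 and -0.36 for tyro3. For the row under the symbol CXCR1, apart from the row cxcr1, it was -2.29 and 3.20. That row read 0 and 8.21 FPKM in kdrl:cxcr1, compared with 3.89 and 0 FPKM in controls. Each of its ratios thus rests on a value listed at 0.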

How the results depend on the processing

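No signal gene passed the threshold under any of the 15 alternatives (0 in each). kitlga, pdgfba, pdgfbb and tgfb1a stayed lower and gas6 higher in kdrl:cxcr1 under all 15. Only the scalings and the quantile normalization could have turned these signs. Filters, moderation and the block leave the estimate as it is. Values without overlap keep their direction at any pseudocount and with any 1 library left out. With 1 library left out, the log2 fold change ranged from -0.79 to -0.72 for kitlga, -1.39 to -0.72 for pdgfba, -1.37 to -0.24 for pdgfbb, -1.10 to -0.57 for tgfb1a and 0.64 to 0.96 for gas6. Under the other alternatives it ranged from -0.98 to -0.66, -1.28 to -0.95, -1.01 to -0.61, -1.06 to -0.73 and 0.58 to 0.86. tgfb2, at 0.02, turned to -0.20 with median-of-ratios scaling and -0.14 with quantile normalization, with a range of -0.60 to 0.64 over the fits that left 1 library out. bmp4, at -0.19, likewise ranged from -0.75 to 0.37. The cause was not tested. Over all genes, 2 passed in the fit as reported. With the clutch as a replicate block 0 genes passed, and the same count came without the filter, without the intensity trend and at a pseudocount of 0.1. Leaving out any 1 library also left 0 (a range of 0 to 0), where the lone library of a genotype is assumed to vary like the other genotype. At an unadjusted p below 0.05 limma gave 1206 genes. The signal genes at that level numbered 1 in the fit as reported, 2 with no filter or quantile normalization and 0 with the endothelial rescaling. With the endothelial rescaling 3 passed. The block changed no call of a signal gene. Median-of-ratios scaling moved the median of all genes from 0.16 to -0.03. Genes lower without overlap then made up 20.0% and those higher 18.3%, and the same 5 signal genes did not overlap. Depth, unknown from FPKM, sets no limit that can be stated.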

Other observations

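Ligands of the same families that the text above does not describe differed in direction among themselves. PDGFD, a ligand of Pdgfrb and Pdgfra complexes, read 2.55 and 7.16 FPKM in kdrl:cxcr1, compared with 1.08 and 1.74 FPKM in controls. tgfb5, a Tgfb gene, read 0.675 and 1.20 FPKM against 2.49 and 2.88 FPKM. Neither passed the test (limma's adjusted p = 0.723 and 0.742), and both were named after their values were seen. Under the symbol osm, the RefSeq table of build GRCz12tu lists a long non-coding RNA entry, while the other 9 signal genes are listed there as protein coding. Whether this bears on the osm row at 0 was not tested.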
